A study of Mus musculus with 2 samples.

Results

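The genes described are 7 members of the Ly6 family of surface proteins, Ly6a, Ly6c1, Ly6c2, Ly6d, Ly6e, Ly6m and Lypd8, taken by gene symbol from the 33083 genes of both matrices. They were measured by droplet single-cell RNA sequencing of mouse colon in 2 libraries. The WT library came from wild-type mice, and the AD library came from the transgenic model of Alzheimer's disease that the series calls APP/PS1-21. Per the labels, both tissues were minced, digested with trypsin and DNase I, and cleared of red cells. The promoter that drives the transgenes, the age and sex of the mice and the number of animals per library are not given in the sources used here. Since each genotype has 1 library, variation among mice is unknown and the genotypes could not be tested against each other. Each difference below is a difference between these libraries, and the 95% intervals (exact Poisson for levels, conditional on the total count for ratios, exact binomial for shares) cover counting error only.

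Ly6 proteins are small proteins with a three-finger fold held by disulfide bonds, and most are tied to the outer cell membrane by a glycosylphosphatidylinositol (GPI) anchor. Several are used to sort cell types of mouse blood and tissue, such as Sca-1 (Ly6a) for stem and endothelial cells and Ly-6C (Ly6c1 and Ly6c2) for monocytes and lymphocyte subsets. Lypd8 is a heavily glycosylated relative that coats the surface of the colon and binds flagellated bacteria.

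After filtering, 1546 WT and 4687 AD cells were clustered together, with the members left out of the genes used for clustering. Each cluster was named "X-like" from marker genes of other families. The 5 classes compared held, in WT and AD, 52 and 870 plasma-like, 99 and 82 endothelial-like, 238 and 817 fibroblast-like, 205 and 318 T-like, and 554 and 1522 epithelial-like cells. Every marker of its own list that was found in the matrix was detected in the endothelial-like, fibroblast-like, T-like and epithelial-like classes. Of the T list only 8 markers were found. In plasma-like cells 1 of 10 markers, Iglc1, was at 0 in both libraries. A level is the number of molecules counted (unique molecular identifiers, UMIs) summed over a class and library, per 1000000 UMIs of that class (CPM). A gene was counted as apart when the ratio of AD over WT, with 0.5 counts added to each sum, was at least 2-fold and at least 20 UMIs were present over both libraries. A property that touches several results was the amount of immunoglobulin RNA. UMIs of Jchain, the joining chain of secreted antibody, stood at 32.3 CPM in WT and 551 CPM in AD epithelial-like cells, at 34.0 and 3396 CPM in fibroblast-like cells and at 112 and 6070 CPM in endothelial-like cells. The barcodes over the mitochondrial limit made up 60.4% of WT and 29.2% of AD barcodes. The libraries shared 7 barcodes, of which 2 were among the kept cells.

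The members lie in 2 places of the genome. Per GENCODE release M21 (GRCm38), matched by gene identifier, Ly6d, Ly6m, Ly6e, Ly6a, Ly6c1 and Ly6c2 lie in that order on chromosome 15 between 74762056 and 75111970, and Lypd8 is on chromosome 11 at 58379043 to 58390728. The submitters' processing notes name mm10, the same assembly, but 1682 of the 33083 identifiers are absent from that release, so the annotation behind the counts was not settled. Ly6c1 and Ly6c2 are near copies. The last 500 bases of their transcripts were 95.5% identical over the alignment, and 35 of 411 stretches of 90 bases (8.52%) were shared, so reads from those stretches cannot be given to one gene. No other pair of members shared such a stretch.

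The sequences before the start of this pair are shown because the 2 genes, so alike in their transcripts, had their highest levels in different classes. They come from RefSeq (GRCm38.p6), minus strand, chr15:75048838-75049056 for Ly6c1 and chr15:75111997-75112221 for Ly6c2, and are given as the part of each promoter window that aligns with the other. Capitals mark bases that differ from the other gene or face a gap.
Ly6c1: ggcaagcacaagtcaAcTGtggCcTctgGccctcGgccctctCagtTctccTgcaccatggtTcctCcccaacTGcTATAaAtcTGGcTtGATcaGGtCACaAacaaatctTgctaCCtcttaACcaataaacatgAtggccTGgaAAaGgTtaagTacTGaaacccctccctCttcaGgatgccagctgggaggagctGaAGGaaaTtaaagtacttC
Ly6c2: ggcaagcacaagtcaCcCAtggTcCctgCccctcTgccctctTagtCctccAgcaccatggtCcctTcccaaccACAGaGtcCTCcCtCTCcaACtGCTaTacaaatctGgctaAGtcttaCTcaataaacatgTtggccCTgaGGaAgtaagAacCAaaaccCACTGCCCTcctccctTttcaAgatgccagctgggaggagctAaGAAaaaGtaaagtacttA
The aligned stretches were identical at 164 of 228 positions (71.9%). The motif TATAAA, searched on both strands, was present before Ly6c1, 143 bases before the start, and not in the Ly6c2 stretch. It was found in 12.97% of 27025 mouse promoter windows. Neither stretch held TTCNNNGAA, which reads the same on both strands and was found in 7.18% of windows. These matches are descriptions of the letters only.

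**Figure D1:**
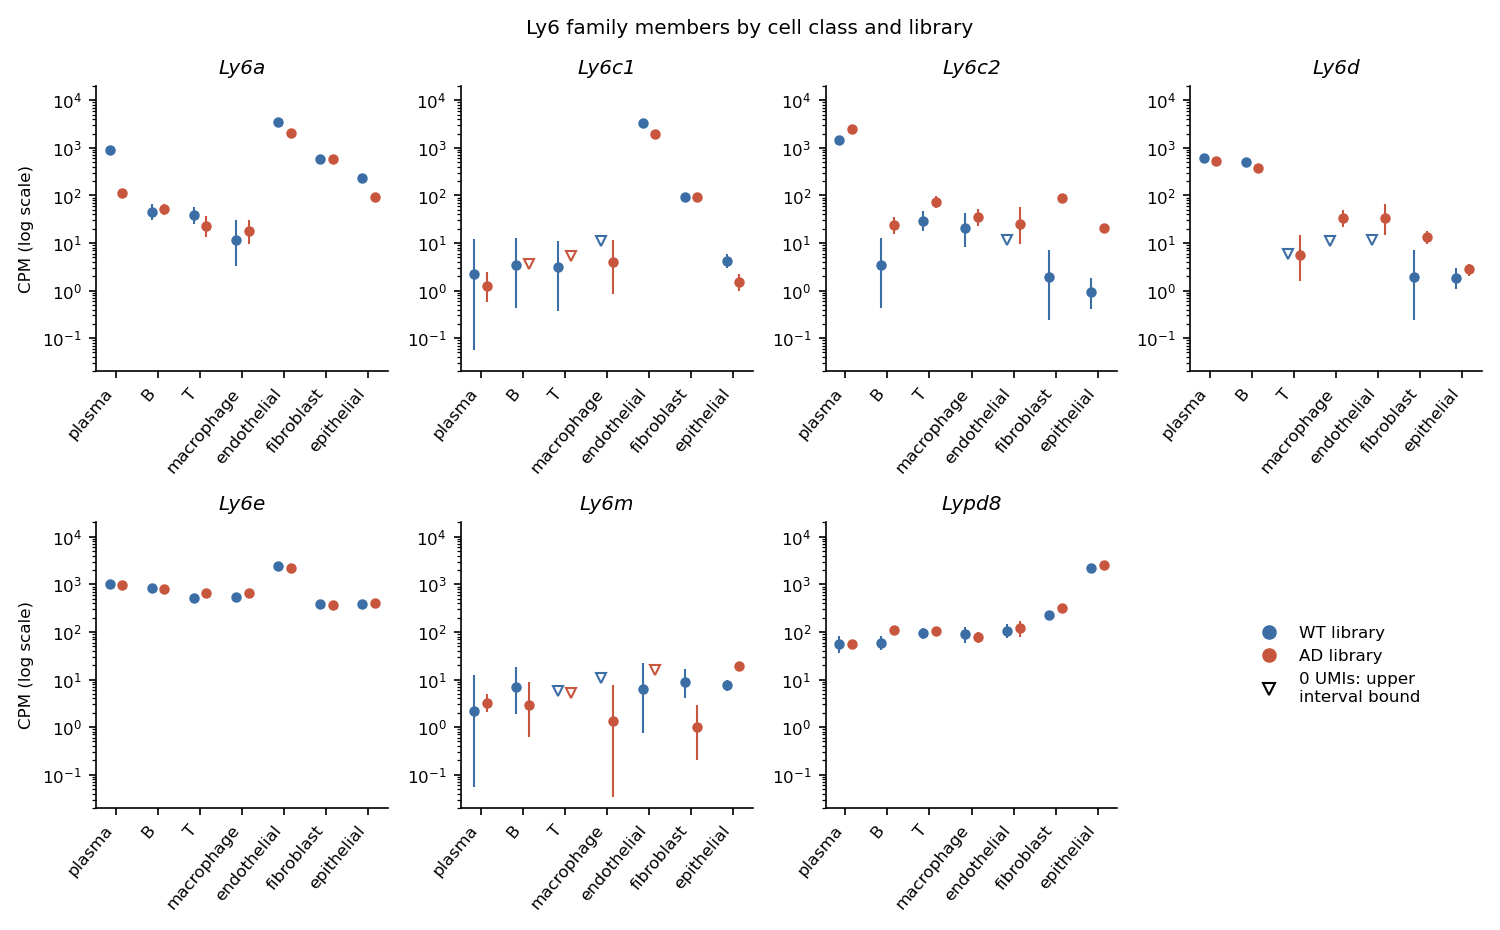
Levels of the 7 members in CPM (log scale) in 7 cell classes, as sums over each library (blue WT, red AD), with exact 95% Poisson intervals; an open triangle marks the upper interval bound where no UMI was counted. Ly6c1 was highest in endothelial-like cells, Ly6c2 in plasma-like cells and Lypd8 in epithelial-like cells in both libraries, while Ly6e lay between 377 and 2407 CPM in the classes shown.

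Ly6c1 was chiefly an endothelial gene in these libraries. In endothelial-like cells it stood at 3274 CPM in WT (3079 to 3478, 1050 UMIs) and 1976 CPM in AD (1800 to 2165, 461 UMIs). Fibroblast-like cells came next, at 93.3 and 92.9 CPM, a level that was nearly the same in both libraries. Within fibroblast-like cells, the cluster led by Pi16, an adventitial fibroblast gene, held 136 and 147 CPM, and the cluster led by Adamdec1, a lamina propria gene, held 46.7 and 36.8 CPM. Counts in other classes were low: plasma-like cells had 1 and 9 UMIs, T-like cells 2 and 0, and B-like cells 2 and 0. Epithelial-like cells held 36 WT and 27 AD UMIs.

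Ly6a followed Ly6c1 in endothelial-like cells and was also present in other classes. Its endothelial level was 3502 CPM in WT (3300 to 3713) and 2079 CPM in AD (1898 to 2272). Of 99 WT endothelial-like cells 73 had UMIs of both genes and 12 had neither, and of 82 AD cells 61 had both and 11 neither. Cells with a UMI of the lymphatic genes Lyve1, Prox1 or Mmrn1 were low in both. In WT those 16 cells held 954 CPM of Ly6a and 636 CPM of Ly6c1, against 4124 and 3918 CPM in the other 83, and all 12 cells with neither gene were among the 16. In AD the 10 such cells held 863 and 971 CPM, against 2381 and 2225 CPM in the other 72, and 5 of the 11 cells with neither gene were among the 10. Gpihbp1, a family relative that carries lipoprotein lipase across capillaries, had 49 WT and 8 AD UMIs in endothelial-like cells. The levels were 153 and 34.3 CPM, a log2 ratio of -2.08. Unlike Ly6a and Ly6c1, it was higher in the WT cells with a lymphatic UMI, at 238 CPM against 132 CPM in the others. In AD these values were 64.7 and 26.8 CPM, on 3 and 5 UMIs.

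Between the libraries, no member in endothelial-like cells was 2-fold apart. Of the 4 members with at least 20 UMIs, 0 were higher and 0 lower in AD, beside 5.59% and 5.22% of the 4923 genes that met the same minimum. Ly6a and Ly6c1 were both lower in AD by a smaller amount, with log2 ratios of -0.75 (-0.91 to -0.60) and -0.73 (-0.89 to -0.57). In cells with no Jchain UMI, 82 in WT but only 10 in AD, these ratios were -0.16 and -0.09. Ly6e, at 2407 and 2225 CPM, differed by a log2 ratio of -0.11 (-0.28 to 0.05). Ly6c2 was counted 0 times in WT, with an upper interval bound of 11.5 CPM, and 6 times in AD.

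Plasma-like cells carried Ly6c2, Ly6d, Ly6e and Ly6a. These antibody-secreting cells were led by Igha, the heavy chain of IgA, in all 52 WT and in 863 of 870 AD cells. Ly6c2 stood at 1500 CPM in WT (1390 to 1617) and 2536 CPM in AD (2499 to 2574), with a UMI in 38 of 52 and 709 of 870 cells. Its log2 ratio of 0.76 (0.65 to 0.87) was under 2-fold. The top 5 cells held 43.1% of the Ly6c2 UMIs in WT, out of 52 cells, and 11.7% in AD, out of 870. These shares depend on the number of cells and do not compare the spread. In WT 19 cells held 10 or more Ly6c2 UMIs, with a highest count of 77. In AD 380 cells did, with a highest count of 729. Ly6d, known from the B lineage, was at 622 CPM in WT and 537 CPM in AD, and in B-like cells at 516 and 374 CPM. Ly6c2 and Ly6d were counted together in 29 WT and 553 AD plasma-like cells. In B-like cells Ly6c2 had only 2 and 24 UMIs, so both genes were seen in plasma-like cells but chiefly Ly6d in B-like cells.

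Ly6a was the 1 member of 6 that was 2-fold apart in plasma-like cells, and it was lower in AD. It stood at 907 CPM in WT (821 to 999, 411 UMIs) and 114 CPM in AD (106 to 122, 804 UMIs), a log2 ratio of -2.995 (-3.17 to -2.82) and a 7.97-fold higher level in WT. For comparison, 12.7% of the 10165 genes with enough UMIs were higher and 7.69% lower in AD, so 1 of 6 is not far from the background. Ly6a was carried by 29 of 52 WT cells (55.8%) and 218 of 870 AD cells (25.1%). Thinned to 1000 UMIs per cell, it was seen in 16 of 48 WT cells (33.3%, 20.4 to 48.4) and 69 of 828 AD cells (8.33%, 6.54 to 10.4). Macrophage and monocyte-like cells served as a low-Ly6a class. Without thinning, 5.77% of WT and 6.47% of AD cells of that class had a UMI, beside the unthinned 55.8% and 25.1% of plasma-like cells. Median depths were 7867 and 6882 UMIs for plasma-like and 4351 and 3677 UMIs for macrophage and monocyte-like cells. In WT, 11 cells held 10 or more Ly6a UMIs and the top 5 cells held 61.1% of the sum, so the WT level rests on few cells. In AD, 19 cells held 10 or more. Under the alternatives run that could change the ratio it lay between -3.05 and -2.72.

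**Figure D2:**
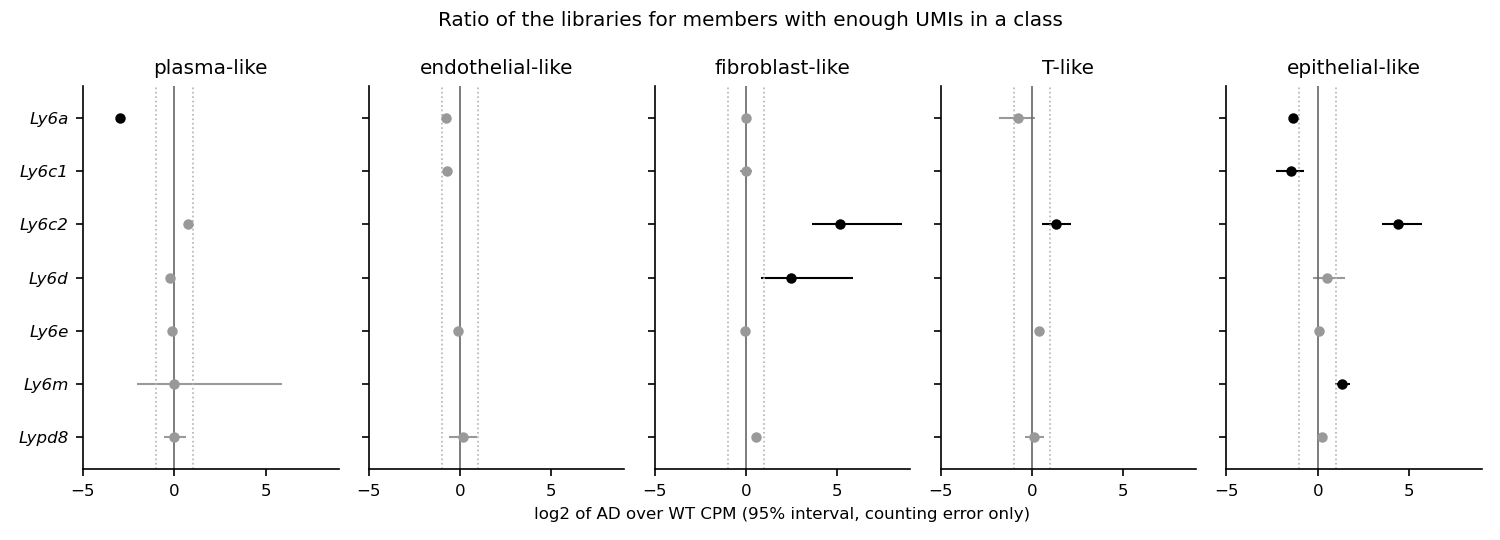
Log2 ratio of AD over WT CPM in the 5 classes for members with at least 20 UMIs, with 95% intervals for counting error; dotted lines mark 2-fold, and black points are past it. Ly6a lies far to the left in plasma-like cells, and Ly6c2 lies to the right in fibroblast-like, T-like and epithelial-like cells.

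Fibroblast-like cells held nearly the same level of Ly6a in both libraries. Its level was 582 CPM in WT (537 to 631) and 579 CPM in AD (552 to 606), a log2 ratio of -0.01 (-0.14 to 0.13), and 59.2% and 62.2% of the cells had a UMI. The Pi16 cluster stood at 693 and 742 CPM and the Adamdec1 cluster at 458 and 406 CPM. Of Ly6c1-positive fibroblast-like cells, 44 of 49 in WT and 141 of 157 in AD also had a Ly6a UMI. Ly6e was at 392 and 377 CPM.

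In the same cells 2 of 6 members were 2-fold higher in AD and 0 lower, beside 5.87% and 2.82% of 11264 genes. Both are genes that plasma-like cells carry. Ly6c2 had 2 UMIs in WT and 264 in AD (1.94 and 86.4 CPM), a log2 ratio of 5.15 (3.61 to 8.53), and Ly6d had 2 and 41 UMIs (1.94 and 13.4 CPM), a ratio of 2.48 (0.84 to 5.88). A single AD cell held 129 of the 264 Ly6c2 UMIs, and 84 of 817 cells had any. Leaving out the top cell of each library, which in WT removed 1 of the 2 UMIs, gave a Ly6c2 ratio of 4.92. It was 3.34 at a mitochondrial limit of 10%, 3.62 at resolution 2, 3.77 at 1000 UMIs per cell, 3.95 with doublets kept and 3.94 with the members among the variable genes. Summed plasma markers stood at 507 CPM in WT and 14220 CPM in AD, with 2 of 10 and 1 of 10 at 0. Most of the AD sum was Igha (10250 CPM) and Jchain (3396 CPM), which stood at 155.6 and 34.0 CPM in WT. In the cells with no Jchain UMI, 211 in WT and 120 in AD, Ly6c2 had 2 and 7 UMIs, too few to count. Per 1000 Jchain UMIs of the AD library, Ly6c2 had 25.4 UMIs in fibroblast-like cells (22.4 to 28.7) and 22.0 in plasma-like cells (21.7 to 22.3). The fibroblast-like value pools unlike clusters: it was 15.2 in the Pi16 cluster (12.1 to 18.9), 53.4 in the Adamdec1 cluster (45.6 to 62.3) and 5.24 in the remaining one (2.39 to 9.97). The Adamdec1 value rests largely on 1 cell. Its AD cells held 172 Ly6c2 UMIs, beside 83 and 9 in the other clusters, so the cell with 129 UMIs is among them. The intervals do not cover this, so these values do not establish a difference between the clusters. Ly6d had 3.95 (2.83 to 5.36) in all fibroblast-like and 4.66 (4.51 to 4.81) in plasma-like cells. The part of plasma cell RNA in these fibroblast-like counts was not tested beyond these values.

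**Figure D3:**
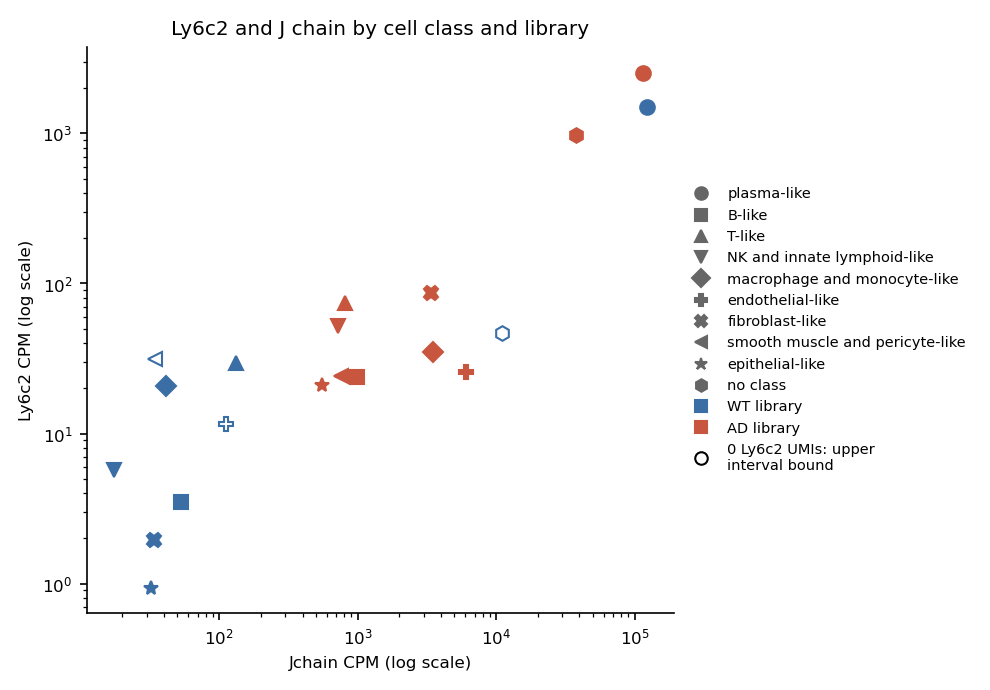
Ly6c2 CPM against Jchain CPM, both on log scales, for 10 groups of cells (shapes) in the WT (blue) and AD (red) libraries; open symbols mark 0 Ly6c2 UMIs and are drawn at the upper interval bound. Each AD class other than plasma-like lies at a higher Jchain level than the same WT class, and plasma-like cells lie at the top right in both libraries.

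The same ratio differed between the other AD classes. It was 24.0 per 1000 Jchain UMIs in B-like cells (15.3 to 35.9). It was lower than in plasma-like cells in endothelial-like cells, at 4.24 (1.55 to 9.25), and in macrophage and monocyte-like cells, at 9.97 (6.50 to 14.7). It was higher than in plasma-like cells in epithelial-like cells, at 38.3 (34.5 to 42.4), in NK and innate lymphoid-like cells, at 71.7 (43.1 to 113), and in T-like cells, at 91.6 (67.6 to 122). Within the epithelium it was 55.2 in colonocyte-like (45.4 to 66.5), 45.4 in crypt-like (37.8 to 54.1) and 26.4 in goblet-like cells (21.9 to 31.6). The NK and innate lymphoid-like cells were a single cluster, led by Il17a, that is close to T-like cells. The share of T markers that passed the naming limits in it was 0.75, beside 0.8 of its own list.

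Ly-6C is known on memory and effector subsets of T cells. In T-like cells the level of Ly6c2 was 29.7 CPM in WT (17.9 to 46.4, 19 UMIs in 6 cells) and 74.5 CPM in AD (55.7 to 97.7, 52 UMIs in 27 cells), a log2 ratio of 1.30 (0.54 to 2.17). Of the 4 members with 20 UMIs, 1 was higher and 0 lower in AD, beside 8.19% and 4.33% of 6606 genes. In cells with no Jchain UMI the levels were 32.0 CPM (18 UMIs, 179 cells) and 91.3 CPM (12 UMIs, 72 cells). The log2 ratio there was 1.53, on few UMIs. Over all T-like cells plasma markers summed to 768 CPM in WT and 4429 CPM in AD, with 3 and 2 of 10 at 0. Most of this was Igha, at 531.5 and 3440 CPM, and Jchain, at 131 and 814 CPM. The part of plasma cell RNA in the T-like difference was not tested. In fibroblast-like cells without Jchain Ly6c2 was at 2.27 and 23.9 CPM, and in macrophage and monocyte-like cells without Jchain at 29.9 and 39.2 CPM, on 7 and 2 UMIs. Most UMIs lay in the cluster led by Ccl5, Cd8a and Gzmb, genes of cytotoxic cells, which held 33.6 and 122 CPM. The cluster led by Foxp3, the regulator of regulatory T cells, had 0 UMIs in 26 WT cells and 8 in 144 AD cells. The cytotoxic cluster made up most T-like cells in both libraries, 179 of 205 in WT and 174 of 318 in AD.

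Ly6e, known as an interferon-inducible gene of broad expression, was counted in 62.9% of WT and 61.3% of AD T-like cells. Its level was 514 and 665 CPM, a log2 ratio of 0.37 (0.16 to 0.58). By cluster the ratio was 0.32 in the cytotoxic cluster and -0.41 in the Foxp3 cluster, whose share of the cells differed between the libraries. Under the alternatives the T-like ratio of Ly6e lay between 0.107 and 0.568. Ly6a was at 39.1 and 22.9 CPM in T-like cells, on 25 and 16 UMIs. Its Foxp3 cluster stood at 218 CPM in WT and 32.8 CPM in AD, on 16 and 11 UMIs. Neither Ly6m nor, in WT, Ly6d had a UMI in T-like cells. The upper interval bound of a count of 0 there was 5.77 CPM in WT and 5.29 CPM in AD.

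Epithelial-like cells had all 7 members at 20 UMIs or more. Of these 2 were 2-fold higher in AD (Ly6c2 and Ly6m) and 2 lower (Ly6a and Ly6c1), beside 4.02% higher and 5.88% lower of 14373 genes. Lypd8 was the member of the colon surface. It was at 2172 CPM in WT (2141 to 2203) and 2577 CPM in AD (2554 to 2601), a log2 ratio of 0.25 (0.22 to 0.27). Under the alternatives this ratio lay between -0.04, at a mitochondrial limit of 10%, and 0.405. At a limit of 50% it was 0.06. Along the epithelium Lypd8 was highest in colonocyte-like cells, at 6834 and 6866 CPM, and was counted in 107 of 108 WT and 366 of 367 AD cells. Crypt-like cells (stem and cycling markers) had 1334 and 1661 CPM, enteroendocrine-like cells 482 and 343 CPM, and goblet-like cells 309 and 371 CPM.

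Lypd8 was also counted outside the epithelium. In plasma-like cells it was at 55.2 and 54.9 CPM, in T-like cells at 93.8 and 103 CPM, in endothelial-like cells at 106 and 120 CPM and in fibroblast-like cells at 223 and 323 CPM. Lgals4, an epithelial lectin gene, had like values, with 83.8 CPM in WT plasma-like and 306 CPM in AD fibroblast-like cells. In WT fibroblast-like cells 129 of 229 Lypd8 UMIs were in 1 cell, and 20.6% of the cells had any. Without the top cell of each library the fibroblast-like log2 ratio went from 0.53 to 1.45, past 2-fold. It was 0.10 at a mitochondrial limit of 10% and turned to -0.41 at 1000 UMIs per cell. At the main settings the ratio was 2.63 in the Pi16 cluster, -0.54 in the Adamdec1 cluster and 2.68 in the remaining one. The part of free epithelial RNA in these counts was not tested.

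**Figure D4:**
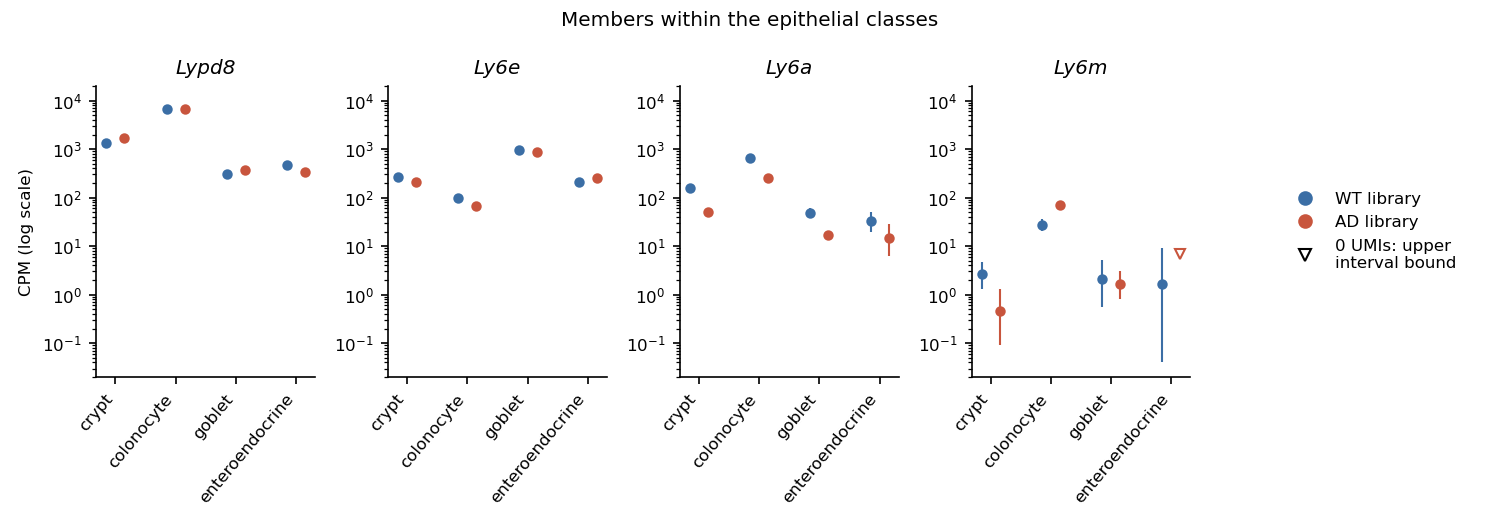
Levels of 4 members in CPM (log scale) in the 4 named epithelial classes, for WT (blue) and AD (red), with exact 95% Poisson intervals. Lypd8, Ly6a and Ly6m were highest in colonocyte-like cells, while Ly6e was highest in goblet-like cells.

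Ly6e ran the other way along the epithelium. Goblet-like cells, which make mucus, had 973 and 888 CPM, crypt-like cells 267 and 213, enteroendocrine-like cells 215 and 249, and colonocyte-like cells 98.7 and 68.7 CPM. Over all epithelial-like cells it was at 389 CPM in WT (376 to 403) and 402 CPM in AD (393 to 411), a log2 ratio of 0.05 (-0.01 to 0.11).

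Ly6a was lower in AD in every named epithelial class. It stood at 663 and 251 CPM in colonocyte-like, 161 and 49.9 CPM in crypt-like, 49.0 and 16.8 CPM in goblet-like and 32.8 and 14.8 CPM in enteroendocrine-like cells, where the interval of the log2 ratio reached past 0 (-2.53 to 0.10). For all epithelial-like cells the levels were 230 CPM in WT (220 to 240) and 91.3 CPM in AD (86.9 to 95.8), a log2 ratio of -1.33 (-1.43 to -1.24). With each cell given equal weight the ratio was -0.96, under 2-fold. Ly6c1 in the same cells had 36 and 27 UMIs, a ratio of -1.49 (-2.27 to -0.73), and 31 of the 36 WT UMIs were in colonocyte-like cells. In cells with no Jchain UMI, 395 in WT and 108 in AD, Ly6c1 was at -0.16, under 2-fold. Ly6a remained lower there, at -1.60.

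Ly6m was the 1 member whose 2-fold difference changed direction under an alternative. It had 64 WT and 345 AD UMIs in epithelial-like cells, 7.52 CPM (5.79 to 9.60) and 19.2 CPM (17.2 to 21.3), with 48 and 332 of them in colonocyte-like cells (27.4 and 69.3 CPM). The log2 ratio was 1.34 (0.96 to 1.76). With a mitochondrial limit of 50% it turned to -1.08, and with each cell given equal weight to -0.47. The share of epithelial-like cells with a UMI was 6.50% in WT and 5.78% in AD, so the higher AD sum came from few cells, and the top 5 AD cells held 34.8% of its UMIs. The barcodes over the limit, left out of the classes, held 1508 WT and 251 AD Ly6m UMIs.

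Ly6c2 in epithelial-like cells had 8 UMIs in WT (0.94 CPM) and 379 in AD (21.1 CPM), a log2 ratio of 4.40 (3.495 to 5.71). In the cells with no Jchain UMI the counts were 4 and 6, at 0.85 and 14.9 CPM. Plasma markers summed to 517 CPM in WT and 3395 CPM in AD epithelial-like cells, with 2 and 1 of 10 at 0. Most of the AD sum was Igha (2353 CPM) and Jchain (551 CPM), which stood at 113.5 and 32.3 CPM in WT. The part of plasma cell RNA in the Ly6c2 difference was not tested. Ly6d, at 16 and 50 UMIs, was within 2-fold, with a ratio of 0.54 (-0.27 to 1.48). It was past 2-fold at mitochondrial limits of 10% (1.53) and 50% (1.15) and with each cell given equal weight (1.14). In cells with no Jchain UMI it was 1.34, on 11 and 2 UMIs, too few to count. At the 10% limit only 3 members met both the 2-fold and the UMI limits, and Ly6d may be under the minimum there.

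GPI anchors are built and attached by the Pig genes and their partners. Of 28 such genes found, 24 had enough UMIs in plasma-like cells, of which 4 were higher and 2 lower in AD, beside 12.7% and 7.69% of all genes, with a median log2 ratio of -0.01 beside -0.01 for all genes. The extremes were Pigz (10 and 46 UMIs, -1.82) and Pigf (5 and 28 UMIs, -1.59) on the low side, and Pgap3 (0 and 36 UMIs) and Pgap2 (1 and 87 UMIs, 1.90) on the high side, all with few WT counts. In epithelial-like cells 26 were counted, 0 higher and 1 lower (Pigq, -1.47), beside 4.02% and 5.88%, with a median of -0.05 beside -0.04 for all genes. In endothelial-like, fibroblast-like and T-like cells 6, 21 and 10 were counted, with medians of -0.11, 0.12 and -0.05.

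Interferon-stimulated genes, among which Ly6e and Ly6a are often placed, were read from a list of 35. In plasma-like cells 22 were counted, 3 higher and 4 lower, beside 12.7% and 7.69% of all genes, with a median of 0.11. Ifit1, with 12 and 10 UMIs, had the lowest ratio (-4.21), and Gbp2, with 11 and 447 UMIs, stood at 1.32. In epithelial-like cells 24 were counted, 2 higher and 0 lower, beside 4.02% and 5.88%. Those 2 were Mx1 (1.29) and Rtp4 (1.03), and the median was -0.15. In endothelial-like, fibroblast-like and T-like cells 1 of 18, 2 of 26 and 2 of 17 were higher and 0 lower, with medians of 0.15, 0.06 and 0.08. The shares of all genes higher in those classes were 5.59%, 5.87% and 8.19%, and lower 5.22%, 2.82% and 4.33%.

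Over 24 class by library profiles (12 classes, 2 libraries) the profile of each member was set beside 13051 genes by Pearson correlation of log2(CPM + 1). The profiles share libraries and depth, so the values are descriptions. Closest to Ly6c1 were Ackr1 (0.90), Vwa1 (0.90) and Fgd5 (0.89). Closest to Ly6c2 were Igha (0.90), Jchain (0.89) and 2010309G21Rik (0.87), and to Ly6d Tnfrsf13c (0.95), the B cell receptor of BAFF, Gm30211 (0.95) and Iglc2 (0.92). Lypd8 was closest to Ethe1 (0.97), Mgat4c (0.96) and Maoa (0.96), and Ly6m to Prss30 (0.78), Tmigd1 (0.77) and Slc34a2 (0.76). Ly6a was close to Htr1f (0.83) and Ptk6 (0.77), and Ly6e was closest to Tspan13 (0.89), Gm32031 (0.83) and Dusp7 (0.82).

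Of 38 other genes of the Ly6 and uPAR family found in the matrix, 9 had at least 100 UMIs over the kept cells, 19 had under 20, and Ly6k and Spaca4 had 0. Cd177 (158 CPM in WT and 188 CPM in AD) and Plaur, the urokinase receptor (42.3 and 57.9 CPM), had most UMIs in epithelial-like cells. The same held for Lypd6b, Ly6g6e, Lypd8l, Ly6g and Ly6g6d. Epithelial-like cells held 8511537 of 12354671 kept UMIs in WT and 17961413 of 31937713 in AD, so this order does not rank levels. Lynx1 had more UMIs in fibroblast-like cells than in any other class, 43 of 92 in WT and 91 of 209 in AD. Over both libraries Cd59a had more in enteric glia-like cells than in any other class, 80 of 133 in WT and 5 of 63 in AD, where WT held 36 and AD 3 such cells.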

How the data were processed

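Counts were analysed for 2 libraries of mouse colon. Per the submitters' processing notes, the authors used Cell Ranger 3.0.1, STAR and Seurat 3.0.2 with mm10. The deposited values are raw UMI counts per gene and barcode, not normalized, and no barcode held under 500. Kept cells had 500 or more UMIs, 200 or more genes and no more than 25% mitochondrial UMIs. Scrublet (rate 0.06) called 4 doublets per library, so doublets were hardly removed. Clustering used scanpy 1.11.5, 2000 variable genes without the members, 30 components, 15 neighbours and Leiden resolution 1 (leidenalg 0.10.2), with no integration. Class names other than epithelial-like needed 3 markers, making up 0.3 or more of a list. Each had to be in 10% of the cluster's cells and 4-fold above the other clusters. For the colonocyte and crypt lists 2-fold was enough, and no crypt marker was among the 10 leading genes of the crypt-like clusters. Epithelial-like clusters needed epithelial markers summing to 6000 CPM. They also needed a passing epithelial list or immune markers (Igha, Iglc1 and Jchain left out) under 500 CPM. These naming thresholds were chosen after seeing the data. Deposited depth was 26898149 (WT) and 38731915 (AD) UMIs. Ratios carry intervals conditional on the total (scipy 1.17.1). All 7 members are named. For each list, the 2 highest and 2 lowest ratios may be named, and of other family genes those with at least 100 UMIs. Gpihbp1 was named after its values were seen. The members and lists were chosen with earlier results of these data known. The main alternatives were mitochondrial limit, depth, resolution, weighting of cells and the count minimum, and 3 more were added after seeing the data. Scripts were tested on simulated data. Of the genes with profiles most like a member's, 1 is not reported here.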

Additional observations from a re-analysis of the deposited data

Results flagged for a closer look

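Cells left without a class, which no comparison uses, held several members. In the AD library 214 such cells held Ly6c2 at 980.9 CPM, Ly6d at 259.6 CPM, Ly6e at 514.3 CPM and Lypd8 at 1242 CPM. The 17 WT cells held 0, 88.2, 75.6 and 365 CPM. Most AD cells with no class, 146 of 214, were in 1 cluster that held epithelial markers together with Ighm, Igha, Mzb1 and Derl3 among its leading genes.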

How the results depend on the processing

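With 1 library per genotype no library could be left out. No paired analysis was possible because each genotype has 1 library. The number of members 2-fold apart was 1 in plasma-like cells and became 2 at a mitochondrial limit of 50%, with each cell weighted equally, at 1.5-fold, and without the cell holding most UMIs of a member. The added member was Ly6c2 at 1.5-fold and Ly6m (-1.02, 1.56 and 1.41) in the others. It was 0 in endothelial-like cells and became 2 at 1.5-fold. It was 2 in fibroblast-like cells and became 1 at a mitochondrial limit of 10%, at 1000 UMIs per cell, at resolution 2 and at a minimum of 50 UMIs, and 0 in cells with no Jchain UMI. The member lost was Ly6d, which fell under the UMI minimum at ratios of 2.22, 2.49, 1.04 and 2.48. In cells with no Jchain UMI Ly6c2 was at 3.17 and Ly6d at 0.85, both under the UMI minimum. It was 1 in T-like cells and became 2 at 1000 UMIs per cell, with doublets kept, at resolutions 0.5 and 2, with the members among the variable genes, at 1.5-fold, and in cells with no Jchain UMI, where Ly6a joined Ly6c2. It was 4 in epithelial-like cells and became 2 in cells with no Jchain UMI, where Ly6c2 was at 4.07 but on too few UMIs to count and Ly6c1 was at -0.16. Ly6m in epithelial-like cells turned from 1.34 to -1.08 at a mitochondrial limit of 50% and to -0.47 with each cell weighted equally. The cause was not tested. The other 57 settings of these counts stayed within 1.5 times. The low counts of Ly6c1, Ly6m and Ly6d outside their main classes limit what can be said of them.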
